A study of Mus musculus with 12 samples.

Results

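Prcd, its overlapping neighbour Cygb, and Rhbdf2 and St6galnac2 on either side are 4 genes of mouse chromosome 11 that lie in or across a 120 kb window, chr11:116600000-116720000 in the mm10 build. They were followed in the RNA and the open chromatin of Th2 cells, the CD4+ T cells of type 2 immunity. The RNA table held all 4 genes among 25700, and the ATAC-seq peak lists merged into 24 open regions in the window, of 114463 in all. Prcd was chosen because its RNA differs between the genotypes, so the RNA values of the 4 genes are given as a description with no test. Open chromatin was measured in other libraries and was tested.

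The labels give 2 genotypes, cKO (conditional knockout) and WT, of mouse T cells titled as Th2 cells, with 3 libraries per genotype for RNA-seq and 3 per genotype for ATAC-seq. The series concerns the transcription factor NRF2, encoded by Nfe2l2, in allergic asthma. The labels name neither the deleted gene or exons, nor the promoter that drives the recombinase, nor strain, age, sex, stimulation or whether animals were pooled. Nothing says whether the libraries of a group came from separate animals, so p-values measure the spread between these libraries, which may be technical. Nfe2l2 RNA was at 452.8, 326.4 and 391.5 normalized counts in cKO-labelled libraries, against 169.9, 155.3 and 147.4 in WT libraries. It was higher in every cKO-labelled library (log2 difference 1.29, limma adjusted p = 0.0438). A level summed over the whole gene cannot show whether a stretch of it is missing, so this does not check the labels, and the groups are called cKO-labelled and WT.

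Prcd encodes a very small membrane protein of the disc membranes of rod and cone photoreceptors, and its mutation causes progressive rod-cone degeneration in dogs and retinitis pigmentosa in people. Cygb encodes cytoglobin, a globin best known from fibroblasts and stellate cells. Rhbdf2 encodes iRhom2, an inactive rhomboid protein that carries the protease ADAM17 to the cell surface and is needed in immune cells for the release of TNF. St6galnac2 encodes an enzyme that adds sialic acid to O-linked glycans. ATAC-seq reads where DNA is accessible to a transposase, and the starts of active genes usually are.

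The open region that carries the main difference covers the start of Prcd, and the sequence before that start is shown for this reason. RefSeq places the start at position 116657108 on the plus strand (GRCm38.p6, the mm10 assembly). The 250 bases before it span chr11:116656858-116657107, with the 50 nearest the start in capitals.
Prcd, before the start: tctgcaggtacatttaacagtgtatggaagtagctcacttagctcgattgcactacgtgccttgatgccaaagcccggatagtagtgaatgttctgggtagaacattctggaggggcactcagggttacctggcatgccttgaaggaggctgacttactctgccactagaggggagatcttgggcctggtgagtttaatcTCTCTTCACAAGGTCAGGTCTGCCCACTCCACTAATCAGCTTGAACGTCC
With the 50 bases that follow, this stretch has a GC content of 51.0% and 5 CpG sites. The medians of the 32851 promoter windows of the same length in the RefSeq table are 52.7% and 7. On both strands of these 300 bases there was no match to any of 5 motifs searched. These were the antioxidant response element core TGACNNNGC (in 12.4% of all such windows), the AP-1 motif TGANTCA (7.81%), the GATA motif AGATAA (11.2%), TATAAA (13.6%) and the CRE TGACGTCA (1.79%). TGANTCA and TGACGTCA are the same read from either strand, and with no match there was no overlap between motifs. That these letters are absent from this window says nothing about the factors themselves. The open region reaches 1539 bases after the start, and most of it lies outside the 300 bases and was not searched. The RefSeq table holds 1 promoter window for Prcd and none for the other members. The gene's span in the gene table, 116653889 to 116668389, begins at -3.219 kb from that start, and its first 616 bases are also in Cygb's span.

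Prcd RNA was present at moderate levels in WT libraries and was low in every cKO-labelled library. Its normalized counts were 70.2, 77.9 and 96.1 in cKO-labelled libraries, against 551.6, 690.0 and 593.1 in WT libraries. The groups were far apart, with the highest cKO-labelled library well below the lowest WT library. Means were 81.4 ± 13.3 in cKO-labelled libraries and 611.6 ± 71.0 in WT libraries (SD, n = 3 each), a 7.51-fold lower mean. The difference of the mean log2 values (pseudocount 1) was -2.90. Of 11943 genes with a mean of at least 50, 7 had a lower one, the Y-linked Ddx3y and Eif2s3y among them. Among 18074 genes whose mean was 10 or more, every cKO-labelled value was below every WT value in 9.76% and above in 7.40%. Limma called 0.172% of them lower and 0.0332% higher. Nothing is read from this rank or these shares about Prcd, which was chosen on this contrast. The authors' deposited table gives a log2 fold change of -2.87 for Prcd.

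**Figure D1:**
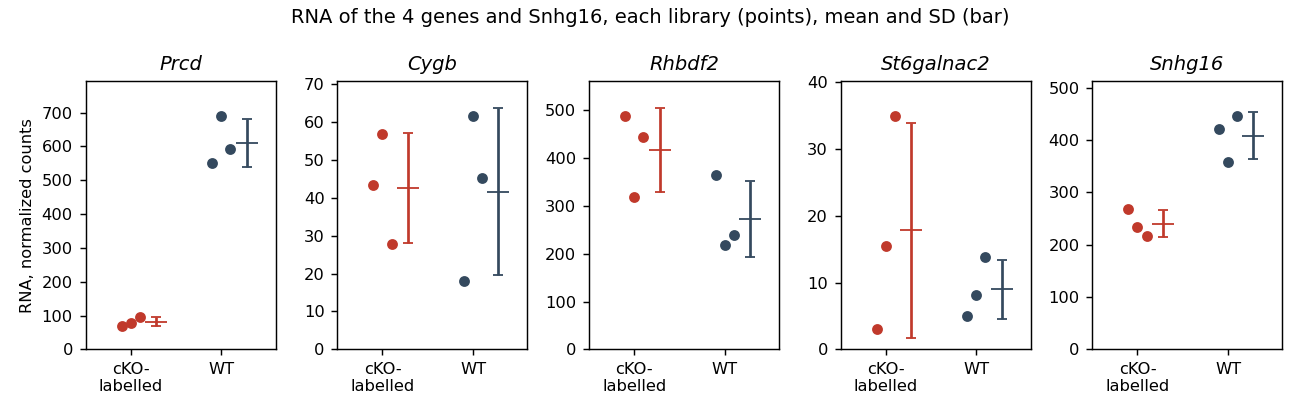
RNA level of Prcd, Cygb, Rhbdf2, St6galnac2 and the neighbouring Snhg16 (y axes, normalized counts, each from 0) in 3 cKO-labelled and 3 WT libraries; points are libraries, bars the mean and SD. Prcd lies between 70.2 and 96.1 in cKO-labelled libraries and between 551.6 and 690.0 in WT libraries, while the values of Cygb, Rhbdf2 and St6galnac2 overlap between the groups.

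The values of the other 3 members overlapped between the groups. Cygb was at 43.4, 56.7 and 27.8 normalized counts in cKO-labelled libraries, against 17.9, 61.5 and 45.3 in WT libraries. These values overlapped widely, with the lowest and the highest both in WT, and the means were 42.6 ± 14.5 and 41.6 ± 22.0 (cKO-labelled and WT, SD, n = 3 each). The spans of Cygb and Prcd share 616 bases, and whether counting used strand is not given in the sources used here, so reads in that stretch could not be assigned to one gene with certainty. The log2 difference of Cygb was 0.14, and it changed sign between settings (-0.36 to 0.50).

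Rhbdf2 was at 488.4, 319.4 and 443.8 in cKO-labelled libraries, against 364.3, 218.1 and 238.4 in WT libraries. The cKO-labelled libraries were on the whole higher, but 1 WT library lay above the lowest of them. Its means were 417.2 ± 87.6 in cKO-labelled libraries and 273.6 ± 79.2 in WT libraries (SD, n = 3 each), a log2 difference of 0.62.

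St6galnac2 was barely detected, at 3.1, 15.4 and 34.9 in cKO-labelled libraries, against 5.0, 8.1 and 13.8 in WT libraries. The cKO-labelled libraries alone spanned the whole WT range, so no direction can be read. In the authors' deposited table the log2 fold changes of Cygb, Rhbdf2 and St6galnac2 are 0.00, 0.35 and 0.03.

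The fifth gene of the window in the RNA table, Snhg16, is a long noncoding RNA gene that hosts the Snord1a, Snord1b and Snord1c small nucleolar RNAs. Its span lies 3271 bases beyond the end of Prcd's. Snhg16 was at 268.3, 234.1 and 217.3 in cKO-labelled libraries, against 420.2, 358.0 and 445.8 in WT libraries. Every cKO-labelled value was below every WT value, but the gene did not pass over all genes (log2 difference -0.76, SE 0.205, limma adjusted p = 0.141). The 3 Snord1 genes were not analysed here.

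Calls were rare over all genes, and the neighbours held none. Within 500 kb on either side, Snhg16 included, 24 genes other than the 4 were tested, and 0 passed limma's adjusted p of 0.05 in either direction, where 0.172% of all tested genes were called lower and 0.0332% higher. At an unadjusted p under 0.05, 3 of them were lower and 1 was higher, against 6.05% of all tested genes in each direction. With so few calls over all genes, the absence of one among 24 does not set the neighbours apart. Their median log2 difference was -0.01, against 0.06 over all tested genes, and the 21 with a mean of at least 50 ran from -0.76 to 0.54. The smallest adjusted p was that of Srsf2, a splicing factor gene 192.8 kb after the Prcd start, at 2215.0 ± 171.4 in cKO-labelled libraries and 3522.0 ± 381.9 in WT libraries (SD, n = 3 each; log2 difference -0.67, limma adjusted p = 0.0792). On the lower side the 3 genes nearest the window with a mean of at least 50 were Ube2o, a ubiquitin-conjugating enzyme gene (log2 difference 0.05), Sphk1, a sphingosine kinase gene (-0.09), and Prpsap1 (0.13). On the higher side they were BC018473 (0.02), Jmjd6 (-0.33) and Mettl23 (-0.19).

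Open chromatin at the start of Prcd was lower in every cKO-labelled library. The region there, chr11:116656572-116658647, reaches from 536 bases before the RefSeq start to 1539 bases after it and was called as 1 peak in each of the 6 lists. Its height was 54.2, 50.8 and 50.2 tags per 10000000 in cKO-labelled libraries, against 155.5, 96.9 and 165.6 in WT libraries. The cKO-labelled libraries lay close together, and the lowest WT library was well above all of them. Means were 51.7 ± 2.16 in cKO-labelled libraries and 139.3 ± 37.1 in WT libraries (SD, n = 3 each), a 2.69-fold lower height. After quantile normalization the log2 change was -1.43 (SE 0.117, limma adjusted p = 0.000231 over 33531 regions called in all 6 lists). On that scale the log2 heights were 5.84, 5.72 and 5.78 in cKO-labelled libraries, against 7.18, 7.09 and 7.38 in WT libraries, so the spread within WT became small beside the difference.

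Of the 33531 regions, 4.33% were called lower and 3.67% higher. A lower log2 change than at the Prcd start was found at 40 of them, and a smaller p at 7. By mean height the region ranked at percentile 65.8 in cKO-labelled libraries and at percentile 88.5 in WT libraries. The shares of higher and lower calls depend on the scaling, with 1229 higher and 1452 lower here, 9387 and 1836 with library medians subtracted, and 459 and 3029 without scaling. The fall at the Prcd start was called under each of these.

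Peak height can depend partly on peak length. The length here was 1528, 1199 and 1160 bp in cKO-labelled libraries, against 1454, 1755 and 2075 bp in WT libraries. Per kb of peak there were 35.5, 42.4 and 43.3 tags in cKO-labelled libraries, against 106.9, 55.2 and 79.8 in WT libraries. The groups stayed apart on this measure, and the log2 change was -1.15 (limma adjusted p = 0.0145). The peak covered the RefSeq start in cKO-labelled replicates 1 and 2 and in all 3 WT libraries, while in cKO-labelled replicate 3 it began 0.241 kb after the start.

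**Figure D2:**
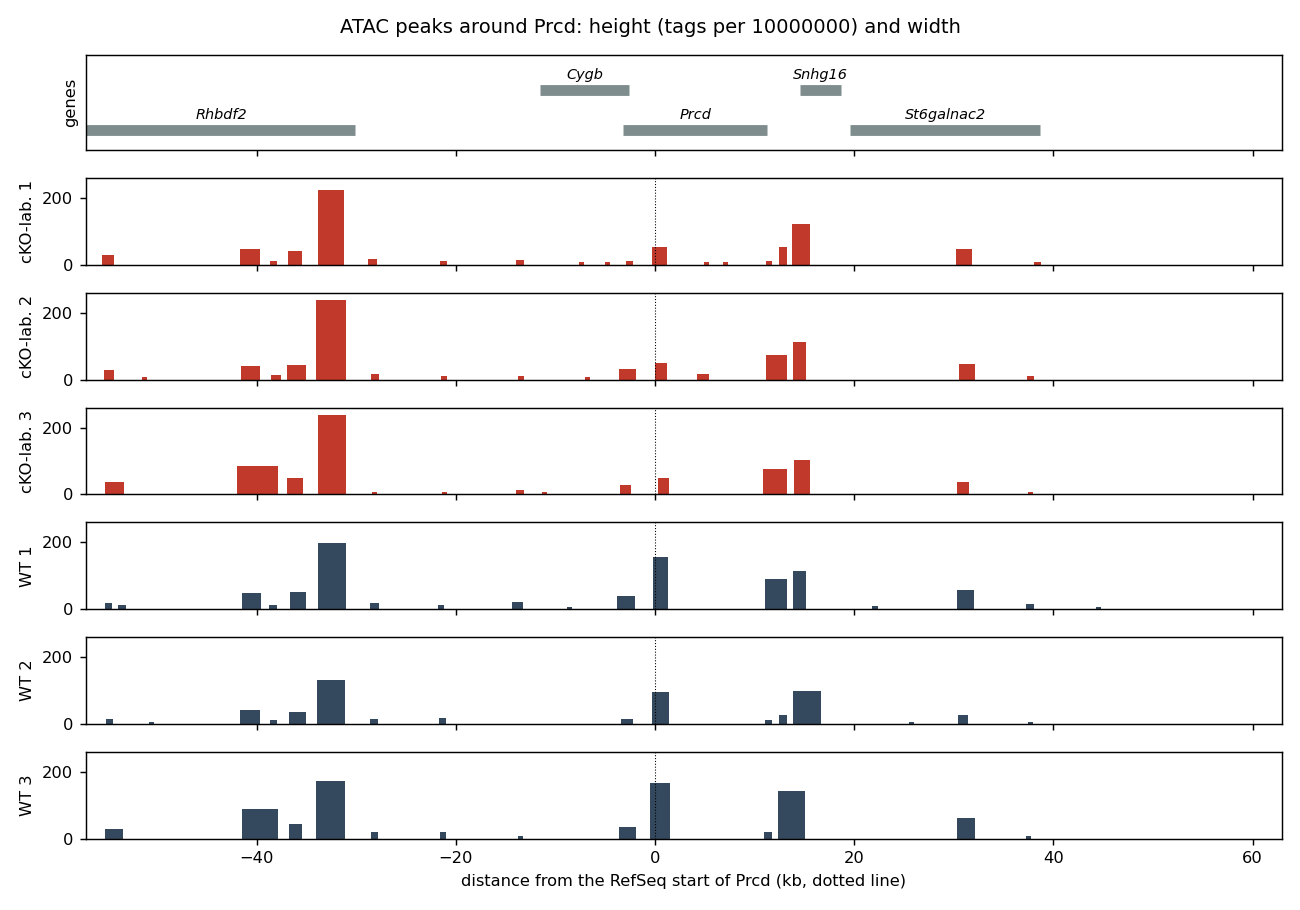
ATAC peaks over the window in each library, with peak height (y axis, tags per 10000000, from 0) and width against distance from the RefSeq start of Prcd (x axis, kb), and gene spans on top. The peak at the dotted line stands at 54.2, 50.8 and 50.2 in cKO-labelled libraries (red) and at 155.5, 96.9 and 165.6 in WT libraries (blue). The tallest peak, near the higher-coordinate end of Rhbdf2, stands above 130 in all 6.

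Next to it in the window lay 10 other shared regions. Of these 10, called in all 6 lists, 0 were called lower and 1 higher by limma, with the same counts at an unadjusted p under 0.05. Over all shared regions 4.33% were called lower and 3.67% higher, and at an unadjusted p under 0.05 the shares were 13.1% and 14.8%. The counts thus do not set the 10 apart, and their log2 changes ran from -0.36 to 0.95. The tallest, chr11:116623023-116626102, lies inside Rhbdf2 within 1 kb of its higher-coordinate end. It was at 223.2, 238.0 and 238.0 tags in cKO-labelled libraries, against 197.0, 130.4 and 173.5 in WT libraries. All cKO-labelled values were above all WT values, as they were in 13.6% of all shared regions, and the log2 change was 0.16 (limma adjusted p = 0.206). With library medians subtracted it was 0.80 and passed (limma adjusted p = 3.73e-05), so a rise at Rhbdf2 depended on the scaling.

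The region called higher, chr11:116601558-116603930 inside Rhbdf2, was at 29.0, 29.9 and 36.5 tags in cKO-labelled libraries, against 18.9, 14.7 and 30.8 in WT libraries. These values overlapped between the groups as deposited, and the call was close to the threshold (log2 change 0.95, SE 0.252, limma adjusted p = 0.0428). It was lost in 8 of the 14 alternatives that gave a value, with adjusted p-values from 0.0114 to 0.159 over the 14. Of the 8, 5 left out a library and gave log2 changes of 0.81 to 1.00, and the other 3, without scaling, with summed tags and per kb of peak, gave 0.60, 0.71 and 0.49. Of the regions inside Rhbdf2, that at chr11:116615171-116619541 was at 47.9, 41.5 and 85.9 tags in cKO-labelled libraries, against 49.4, 40.9 and 90.1 in WT libraries. Both highest values come from libraries with 1 long peak there, where the other 4 libraries hold 2 shorter ones. The third region inside Rhbdf2, chr11:116620092-116622075, overlapped between groups too (log2 change 0.23, limma adjusted p = 0.382).

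Between Rhbdf2 and Cygb, 2 low regions were shared. The one nearer Cygb (chr11:116635281-116636216) was at 12.4, 9.87 and 6.84 tags in cKO-labelled libraries, against 12.5, 16.6 and 19.5 in WT libraries. Its groups were barely separate, as were those of 21.8% of all shared regions with cKO-labelled below WT, and the change did not pass (log2 change -0.36, limma adjusted p = 0.462). The other, chr11:116628287-116629412, overlapped between groups (log2 change -0.01, limma adjusted p = 0.986).

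At the shared ends of Cygb and Prcd, 2.9 kb before the Prcd start, a smaller region (chr11:116653242-116655187) was at 11.7, 31.9 and 27.8 tags in cKO-labelled libraries, against 38.5, 15.3 and 36.4 in WT libraries. Here the groups overlapped, with 1 low library in each (log2 change 0.02, limma adjusted p = 0.976). The merged region covers position 116653889, where the span of Prcd begins on the plus strand. The peak of cKO-labelled replicate 1, from 116654200 to 116654935, did not reach that position. No change was called here, but the estimate was imprecise (SE 0.350) and the region is shared with Cygb. Whether the fall at the RefSeq start differs from the change at this end of the span was not tested. The region from the end of Prcd over the lower-coordinate end of Snhg16 (chr11:116667969-116673758) was at 122.8, 114.2 and 102.7 in cKO-labelled libraries, against 115.5, 97.4 and 142.3 in WT libraries (log2 change -0.22, limma adjusted p = 0.271). Its values overlapped too. The 142.3 is that of 1 peak of 2685 bp in WT replicate 3, where each other library held separate peaks. In St6galnac2, the region at chr11:116687299-116689266 was at 49.0, 48.2 and 38.0 tags in cKO-labelled libraries, against 57.7, 27.6 and 62.0 in WT libraries, and the WT values lay on both sides of the others (log2 change 0.15, limma adjusted p = 0.688). At the higher-coordinate end of that gene the height was low in both groups, at 8.96 ± 1.80 tags in cKO-labelled libraries and 10.0 ± 4.10 in WT libraries (SD, n = 3 each).

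**Figure D3:**
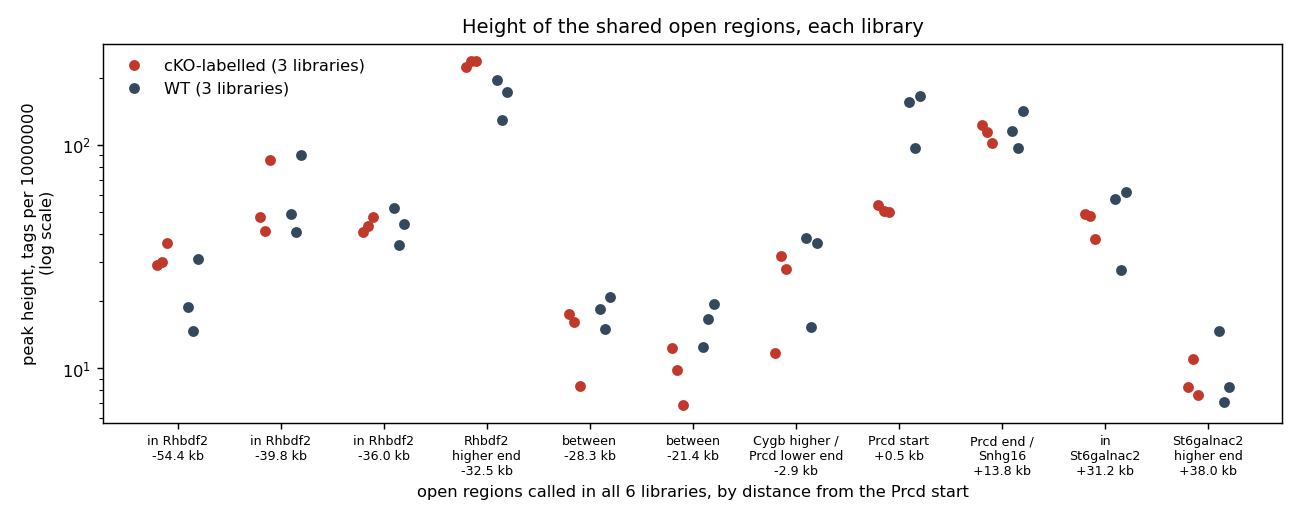
Peak height (y axis, tags per 10000000, log scale) of the 11 regions of the window called in all 6 libraries, ordered by distance from the Prcd start (x axis); points are libraries, cKO-labelled in red and WT in blue. At the Prcd start the cKO-labelled points lie at 50.2 to 54.2, below the WT points at 96.9 to 165.6, and at most other regions the points overlap.

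A ratio of heights within a library cancels a factor common to all its peaks. It does not cancel a shift that depends on height, and the regions compared differ in height. The height at the Prcd start was first set against that of the region near the higher-coordinate end of Rhbdf2. This ratio was 0.243, 0.213 and 0.211 in cKO-labelled libraries, against 0.789, 0.743 and 0.954 in WT libraries. Against the region over the lower-coordinate end of Snhg16 the ratio was 0.441, 0.445 and 0.489 in cKO-labelled libraries. In WT libraries it was 1.35, 0.995 and 1.16, the last with a long peak as denominator. The ratio was below WT in every cKO-labelled library for 8 of the 10 regions used as the denominator, and over all 10 its mean log2 difference ran from -2.02 to -0.63. The 2 exceptions were the region at the Cygb end (two-sided exact permutation p = 0.3) and one between genes at 21.4 kb before the start (exact permutation p = 0.2). For the 8 the exact permutation p was 0.1, the smallest that 3 against 3 libraries allow, and 0.125 after Benjamini-Hochberg adjustment over the 10 ratios. All 10 ratios share the Prcd start as numerator, were chosen after the data had been seen and could not pass with this many libraries, so they are a description of heights within each library. Scaled to the mean of the 10 other regions, the change at the Prcd start was -1.32 (limma adjusted p = 0.000107). That scaling was not planned either and uses the same heights as the ratios.

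Peaks of the 13 regions not called in every list had 6.27 to 22.6 tags, and the lowest peaks that the lists hold anywhere have 5.08 to 6.01. Of the 13, 11 were called in 1 list, at 6.27 to 10.2 tags, and 0 were called in all 3 lists of one group and none of the other. Inside Prcd, 4.8 kb after its start, a region was called in cKO-labelled replicates 1 and 2, at 8.62 and 15.8 tags, and in no WT list. Another, 7.1 kb after the start, was called in cKO-labelled replicate 1 alone at 7.24 tags. A region between Rhbdf2 and Cygb, at 13.8 kb before the Prcd start, was called in 5 lists, at 14.1, 11.8 and 12.5 tags in cKO-labelled libraries, against 22.6 and 9.01 in WT replicates 1 and 3. Of the regions called in 1 list each, 5 lay inside Cygb or at its lower-coordinate end, 2 inside Rhbdf2, 2 inside St6galnac2 and 1 between genes beyond St6galnac2.

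Summed over the window, peaks held 741.2, 764.0 and 747.5 tags in cKO-labelled libraries, against 892.3, 561.0 and 823.1 in WT libraries (two-sided exact permutation p = 1, smallest possible 0.1). They covered 20218, 21713 and 20405 bp at 36.7, 35.2 and 36.6 tags per kb in cKO-labelled libraries, against 22073, 19408 and 21005 bp at 40.4, 28.9 and 39.2 tags per kb in WT libraries. The low WT value is that of replicate 2, where 25.22% of tags lay in peaks, against 34.87% to 38.28% in the other libraries. Without that library the change at the Prcd start was -1.55 (limma adjusted p = 0.000247).

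Farther out, 49 regions within 500 kb on either side of the window were called in all 6 lists. By limma 0 were called lower and 1 higher (2.04%), against 4.33% lower and 3.67% higher over all shared regions. At an unadjusted p under 0.05 there were 2 lower and 10 higher, against 13.1% lower and 14.8% higher over all shared regions. Their log2 changes ran from -0.63 to 0.92 with a median of 0.08, against 0.02 for all regions.

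**Figure D4:**
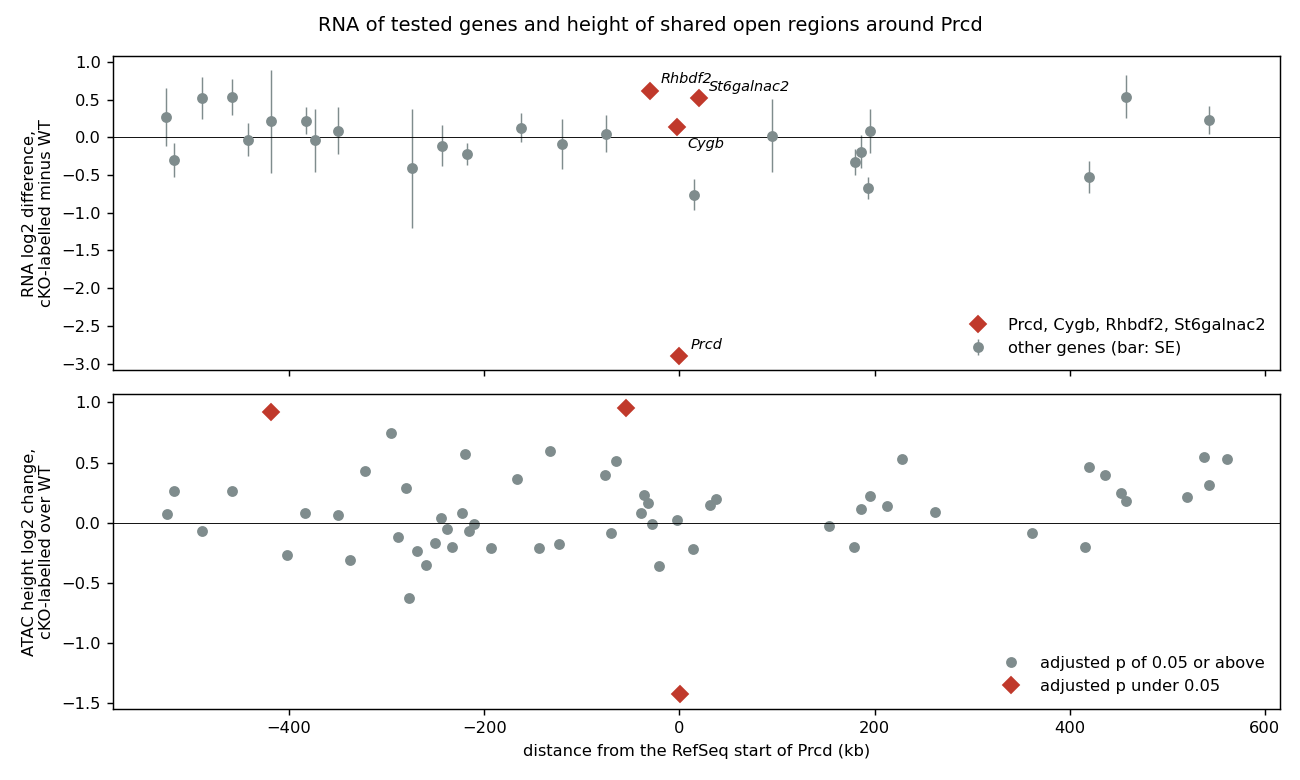
Log2 difference of RNA (upper panel, cKO-labelled minus WT; bars are SE) and log2 change of ATAC height (lower panel, cKO-labelled over WT) against distance from the Prcd start (x axis, kb) for tested genes and shared regions up to 500 kb beyond the window. Prcd, at -2.90, lies below all other genes shown, which run from -0.76 up, and the region at its start, at -1.43, lies below all other regions shown, which run from -0.63 up.

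Genes related to these 4 by pathway or family, and NRF2 targets, were counted in the RNA table. The lists were chosen while earlier results of these data were known. Of 24 genes of the photoreceptor disc and rod pathway, 18 were listed and 12 tested, and 0 were lower or higher in limma, at an unadjusted p under 0.05 as well. Over all tested genes limma called 0.172% lower and 0.0332% higher, and 6.05% in each direction had an unadjusted p under 0.05. With 12 genes the absence of a call does not set the list apart. The median log2 difference of the 12 was 0.20, against 0.06 over all tested genes. The smallest p was that of Rom1, a disc rim protein gene, at 16.6 ± 4.1 in cKO-labelled libraries and 8.1 ± 4.5 in WT libraries (SD, n = 3 each; limma adjusted p = 0.603), followed by Pde6a (log2 difference 0.70) and Gnb1 (0.24). Of 9 globin genes 1 was listed and 0 were tested.

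In the iRhom and ADAM17 list 0 of 24 tested genes passed in limma, with a median log2 difference of 0.16, where 0.172% of all tested genes were called lower and 0.0332% higher. At an unadjusted p under 0.05, 1 of the list was lower and 3 were higher, beside 6.05% of all tested genes in each direction. Frmd8, which encodes a protein that binds and stabilises iRhoms, was at 1270.7, 813.6 and 1284.0 in cKO-labelled libraries, against 800.2, 618.6 and 793.2 in WT libraries (log2 difference 0.59, limma adjusted p = 0.270). Areg, which encodes an EGF-family ligand shed by ADAM17, was at 40.3, 26.6 and 38.1 in cKO-labelled libraries, against 80.2, 77.0 and 78.9 in WT libraries (-1.17, limma adjusted p = 0.202). Egfr, the gene of its receptor, had a log2 difference of 0.99 (limma adjusted p = 0.201). The values of these 3, named for the smallest p of the list, did not overlap between groups. Those of Il6ra and Rhbdd1 were apart as well, and the other tested genes of the list overlapped. Groups were apart in 17.2% of all tested genes in either direction, a share that genes picked by p cannot be set against.

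Of the sialic acid and O-glycan enzymes 0 of 24 tested passed in limma, with a median log2 difference of 0.18. The calls over all tested genes were 0.172% lower and 0.0332% higher. At an unadjusted p under 0.05, 1 enzyme gene was lower and 4 were higher, beside 6.05% of all tested genes in each direction. The smallest p values were those of St3gal2 (log2 difference 1.14, limma adjusted p = 0.240), St3gal1 (0.61, 0.245) and Galnt3 (-1.41, 0.295). Among 14 listed NRF2 targets, 2 of 13 tested were lower and 0 higher by limma, against 0.172% and 0.0332% of all tested genes, with a median log2 difference of -0.46. At an unadjusted p under 0.05, 7 were lower and 0 higher, against 6.05% of all tested genes in each direction. The 2 called lower were the thioredoxin gene Txn1, with a log2 difference of -1.05, and the peroxiredoxin gene Prdx1, with -0.89 (limma adjusted p = 0.0145 and 0.0421). Both calls, and that of Nfe2l2, were lost without any one of cKO-labelled replicates 1 and 3 and WT replicates 2 and 3, while the log2 differences stayed at -1.12 to -0.98 for Txn1, -0.95 to -0.86 for Prdx1 and 1.18 to 1.42 for Nfe2l2. Adjusted p-values from limma then reached at most 0.133, 0.236 and 0.324 for these genes. Srxn1, the sulfiredoxin gene, had the third smallest p (-1.65, limma adjusted p = 0.0820).

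The genes whose RNA followed Prcd most closely over the 6 RNA libraries were Nhp2 (Pearson's r = 0.998 on log2 values), Rida (0.997), Sod1 (0.996), Insl6 (0.994) and Eif2s3y (0.994), among 11942 with a mean of at least 50. All 5 were lower in every cKO-labelled library than in any WT library, so these values mostly restate the difference between the groups. Eif2s3y is Y-linked. Summed RNA of 4 Y-linked genes was 0.0 to 1.5 in cKO-labelled libraries and 297.8 to 347.3 in WT libraries, with Uty, Eif2s3y and Ddx3y at 0 in every cKO-labelled library. In the RNA libraries the presence of Y-linked transcripts and the genotype label therefore cannot be told apart. In the ATAC lists no peak lay within 1 kb of any of these 4 genes in any library, WT included, while all 4 of their X-linked counterparts had a peak in every library. Each ATAC list held 5 to 9 peaks on the Y chromosome. The WT RNA libraries thus carried Y-linked transcripts while the WT ATAC lists held no peak at those genes, and the labels do not say whether the RNA and ATAC libraries came from the same mice or from mice of the same sex. The RNA and ATAC values of Prcd are set side by side under that limit, and the part of sex in either was not tested.

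Markers of other cell types did not separate the groups. The 7 T cell markers summed to 11268.2 to 14904.8 normalized counts in cKO-labelled libraries and 11782.9 to 13339.7 in WT libraries, with none at 0 in a whole group. Rod markers summed to 105.8 to 235.8 in cKO-labelled libraries and 154.9 to 187.4 in WT libraries over the 4 markers used. Sums for fibroblasts and stellate cells, where Cygb is best known, were 150.7 to 249.7 in cKO-labelled libraries and 203.4 to 292.5 in WT libraries, all 6 markers being listed. B cell, myeloid, NK and CD8 T cell and epithelial sums overlapped as well. Of 4 mast cell and basophil markers 1 was listed, at 1.4 to 4.5 in cKO-labelled libraries and 0.0 to 5.4 in WT libraries. Of 6 erythroid markers 1 was listed, at 0.0 to 14.3 in cKO-labelled libraries and 0.0 to 4.6 in WT libraries. Single genes this low cannot compare the groups for these cell types. In these bulk samples fewer cells that make a transcript and less RNA per cell cannot be told apart.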

How the data were processed

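RNA-seq and ATAC-seq of mouse Th2 cells were grouped by their labels. The submitters' processing notes name mm10, HOMER 4.11, Bowtie2 2.3.5.1, RSEM 1.3.3, edgeR, DESeq2 and STAR, without settings. Gene values are a signal as deposited: counts normalized by the authors that are not whole, so raw depth is unknown and whole reads were not recovered; totals were 6431081 to 7372007. The authors' deposited fold changes are log2 values, and their p-value was not used. Per the file headers, peaks were called per library with HOMER (Poisson p-value threshold 0.001, at most 1 tag per bp), the tag count is a signal scaled to 10000000 tags, each peak has a score, and a ratio (the clonal fold change) was not used. Libraries held 13149952 to 18327127 tags. Per the same headers, neighbouring peaks were stitched into longer ones, so height depends partly on length.

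Genes whose mean was 10 or more were tested with limma 3.58.1 (R 4.3.3; mean-variance trend, log2 of value plus 1, Benjamini-Hochberg over all genes, threshold 0.05). Peaks sharing at least 1 bp were merged (Python 3.11.15, pandas 2.3.3). Region height was the tag count of the highest peak, and log2 of height plus 1 was quantile-normalized and tested the same way at regions called in all 6 lists. Of the RNA genes 83.1% matched the GRCm38.p6 gene table by symbol. Gene ends within 1 kb of a region were taken as at the region, and strand is known for Prcd alone.

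Named were the 4 members, all genes and shared regions of the window (regions called in 1 list mostly as counts), neighbours within 500 kb that passed plus the 3 nearest with a mean of at least 50 on each side, the 3 smallest p and all calls of each list, and the 5 genes most like Prcd. Srsf2 and the Y-linked genes were added after their values were seen. The members, lists and tests were chosen with earlier results of these data known. Alternatives were other pseudocounts, filters, scalings, variance models, region definitions, the replicate number as a block and each library left out.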

Additional observations from a re-analysis of the deposited data

How the results depend on the processing

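The fall of height at the Prcd start kept its direction and its call under all 15 alternatives that gave a value. These include the unplanned scaling to the other regions of the window. Log2 changes were -1.55 to -1.07, with limma adjusted p-values of 3.87e-06 to 0.0145. Among the upper 75 percent of peaks by score the region was no longer in all 6 lists and gave no value. The median of all regions was 0.158 with library medians subtracted and -0.148 without scaling, and relative to it the change at the Prcd start was -1.23 in both. The RNA difference of Prcd was -3.03 to -2.80. That of Rhbdf2 was 0.48 to 0.87, while Cygb changed sign, and St6galnac2 was -0.88 with sample quality weights and -0.19 to 1.38 with a library left out. The count of RNA genes called, 37, was 62 with median ratio rescaling, 6 without the mean-variance trend, 1783 with sample quality weights, 3, 150 and 3 without cKO-labelled replicates 1, 2 and 3, and 84, 1 and 5 without WT replicates 1, 2 and 3; quantile normalization gave 17 higher and 16 lower in place of 6 and 31. Counts of ATAC regions called, 2681, were 11223 with medians subtracted, 4742 for summed tags, 833 per kb of peak, 677 for the upper 75 percent of peaks, 486, 526 and 377 without cKO-labelled replicates 1, 2 and 3, and 1883 to 2096 without a WT library. The difference in summed window tags, -7.88, was -107 to 58.9 with a library left out, positive without WT replicate 1 (58.9) or 3 (24.3).

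The labels do not say that replicate numbers pair libraries. In RNA, deviations from the group mean of libraries with the same number correlated at 0.116, 0.206 and -0.055, and in ATAC at -0.023, -0.008 and 0.004, so the numbers were not taken as pairs. With the replicate block 122 RNA genes were called, and the change at the Prcd start was -1.43 (limma adjusted p = 0.000411). Raw RNA depth is unknown, and low peaks near 6 tags are close to what the lists can hold, so their absence from a list does not show closed chromatin.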
